A study of Arabidopsis thaliana with 14 samples.

Results

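The 9 clade A protein phosphatase 2C (PP2C) genes of Arabidopsis thaliana and ABI5 were followed through 10 lists of type-B response regulator (B-ARR) binding peaks. The 10 genes were taken by locus identifier, out of 27444 protein-coding genes and 37899 nuclear genes and pseudogenes in the annotation, and all 10 were found. They were ABI1 (AT4G26080), ABI2 (AT5G57050), HAB1 (AT1G72770), HAB2 (AT1G17550), AHG1 (AT5G51760), PP2CA (AT3G11410), HAI1 (AT5G59220), HAI2 (AT1G07430), HAI3 (AT2G29380) and ABI5 (AT2G36270). A peak belonged to a gene when its summit, the base of highest signal, lay inside the gene or within 1.5 kb of it.

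Abscisic acid (ABA) is the plant hormone of drought and seed dormancy, and its core pathway runs through these phosphatases. Without ABA, clade A PP2Cs dephosphorylate and silence the SnRK2 protein kinases. ABA bound to a PYR/PYL/RCAR receptor traps most of these phosphatases, and the kinases become active. The active kinases phosphorylate bZIP transcription factors such as ABI5, which binds ABA response elements (ABREs) and restrains germination and early seedling growth. B-ARRs act at the end of another pathway, that of cytokinin: phosphorylation of their receiver domain lets them activate transcription.

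Chromatin from 3-day-old whole seedlings was immunoprecipitated with an antibody against GFP, and each condition gave 1 peak list combined from biological replicates. ARR14 was assayed after 3 days of 10 µM 6-benzylaminopurine (6-BA, a synthetic cytokinin), in the list named ARR14_BA3d. ARR1 was assayed in etiolated (dark-grown) seedlings after mock treatment with the solvent DMSO (etiolated ARR1_m), and in long-day seedlings after mock treatment (ARR1_m), 4 h of 10 µM 6-BA (ARR1_BA) and 3 days of 10 µM 6-BA (ARR1_BA3d). ARR10 and ARR12 were each assayed after 4 h of 10 µM 6-BA (ARR10_BA, ARR12_BA) and after 4 h of mock treatment (ARR10_m, ARR12_m). These factors carried a Ypet fluorescent tag, placed by recombineering in large genomic constructs that keep the neighbouring sequence of each gene, so the seedlings also held extra genomic copies around the tagged gene. ARR1∆DDK, which lacks the receiver domain, was expressed from the 35S promoter with a YFP tag as a fusion to the glucocorticoid receptor, and was induced with 10 µM dexamethasone for 4 h. Its title and its inducer identify it, since the label for the line gives the tagged full-length ARR1. Only whole seedlings were sampled, so binding in the seed, where several of these genes are known to act, was not measured.

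Some lists did not match their labels. The study's own target columns fit the ARR12 lists the other way round, so the list labelled ARR12_BA may be the mock one and the list labelled ARR12_m the 6-BA one. Of the genes held from the ARR12 mock column, 100% lay within 1.5 kb of an ARR12_BA summit and 81.4% of an ARR12_m summit. For the ARR12 6-BA column these shares were 62% and 99.9%. The ARR1_m list fits its own column poorly: of the column's genes held here, 56.1% lay within 1.5 kb of an ARR1_m summit, against 96.9% for ARR1_BA and 97.2% for ARR1_BA3d. For ARR10_m the share was 98%. These lists are of unequal size, and a longer list can reach more genes. They hold 3324 peaks in ARR1_m, 7846 in ARR1_BA, 10904 in ARR1_BA3d and 11499 in ARR10_m. At the study's cutoff, given below, ARR1_m held 73 peaks, which called 114 protein-coding genes, while 1860 genes of its column were held here. At that cutoff the ARR1_m list as deposited thus did not give its column. Which list lies behind the column was not tested, and every value below that rests on ARR1_m carries this doubt. The lists are named here by their labels. As a check of the tagged gene, the share of the region within 25 kb of it that peaks covered was measured. The lists labelled ARR12 covered 90.7% and 91.3% of the ARR12 region, and the ARR14 list covered 29.4% of the ARR14 region. The lists labelled ARR10 covered 66.3% (ARR10_BA) and 65.2% (ARR10_m) of the ARR1 region, but only 5.38% and 8.12% of the ARR10 region. The tagged ARR1 lists covered 51.1% to 68.3% of the ARR1 region. Whether the lists labelled ARR10 come from a line with tagged ARR1 was not tested. Of the 10 genes, HAI3 lay nearest to a tagged gene, 1.88 Mb from ARR12.

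A peak's score is the −log10 of its p-value over input DNA, and a gene was called a target where its highest score was at least 16, the study's cutoff. Scores grow with the depth of a library, which is unknown here, so each peak is also given its percentile, the share of peaks in the same list that score at least as high (a low percentile is a strong peak). The lists differed in how far down they reach. The lowest score held was 28.3 in ARR14_BA3d, 31.2 in ARR1∆DDK, 20.6 in etiolated ARR1_m, 4.88 in ARR1_m, 9.85 in ARR1_BA, 12.9 in ARR1_BA3d, 10.7 in ARR10_BA, 6.72 in ARR10_m, 8.06 in ARR12_BA and 15.3 in ARR12_m. No peak in a list means only that nothing was reported above that level. Percentiles depend on it too, since a list that stops at a high score lacks the weak peaks that would lower them. There is 1 list per condition, so no difference between lists could be tested against replicate error.

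The sequences that follow are those at the centre of the binding sites on which the results turn. Summits of different lists less than 200 bases from the next one were joined into a site, and 101 bases around the median summit were read from RefSeq assembly TAIR10.1, 5′ to 3′ along the strand of the named gene. The first pair lies upstream of ABI1 and ABI2 and the second upstream of HAI2 and HAI3. These pairs are shown because their sequences resemble each other. The PP2CA sites hold the highest score of the 10 genes in most lists, and those of AHG1 and HAB2 are shared by at least 5 lists but hold no copy of the B-ARR motif. The shared 5′ UTR sites of HAI1 and ABI2 hold no copy in these 101 bases either, but their windows hold exon sequence and are not printed. Capitals mark the motif AGATHY, that is AGAT followed by A, T or C and then by T or C, searched on both strands. A copy on the opposite strand is therefore shown as its reverse complement, as AAATCT for AGATTT, and AGATCT is its own reverse complement.
ABI1 upstream, chr4:13223510-13223610, minus strand: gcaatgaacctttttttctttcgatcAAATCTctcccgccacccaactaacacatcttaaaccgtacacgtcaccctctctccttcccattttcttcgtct
ABI2 upstream, chr5:23086206-23086306, plus strand: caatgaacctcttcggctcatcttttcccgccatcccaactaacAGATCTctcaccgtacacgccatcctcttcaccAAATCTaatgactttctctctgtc
HAI2 upstream, chr1:2283006-2283106, minus strand: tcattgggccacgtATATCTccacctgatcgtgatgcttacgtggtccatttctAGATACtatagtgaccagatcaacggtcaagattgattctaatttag
HAI3 upstream, chr2:12608479-12608579, plus strand: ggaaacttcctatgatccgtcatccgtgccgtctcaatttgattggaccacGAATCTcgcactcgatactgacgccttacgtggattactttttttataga
PP2CA downstream, chr3:3582765-3582865, minus strand: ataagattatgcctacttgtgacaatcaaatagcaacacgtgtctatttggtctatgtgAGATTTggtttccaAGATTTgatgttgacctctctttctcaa
PP2CA upstream, chr3:3585905-3586005, minus strand: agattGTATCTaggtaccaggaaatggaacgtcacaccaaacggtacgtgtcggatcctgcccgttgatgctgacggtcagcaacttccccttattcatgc
AHG1 downstream, chr5:21029779-21029879, plus strand: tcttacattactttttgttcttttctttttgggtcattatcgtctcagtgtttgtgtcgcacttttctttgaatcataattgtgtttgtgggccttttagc
HAB2 upstream, chr1:6034163-6034263, plus strand: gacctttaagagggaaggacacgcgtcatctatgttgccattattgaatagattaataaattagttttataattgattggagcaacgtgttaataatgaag

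B-ARR peaks were found at all 10 genes. A peak of any score was present in 71 of the 100 combinations of gene and list, and 55 of them were calls. All 10 genes were called in at least 2 lists, as were 41.5% of protein-coding genes, and 5 genes (ABI1, ABI2, PP2CA, HAI1 and HAI2) were called in at least 7, as were 8.18% of protein-coding genes. Without the lists labelled ARR10 and ARR12, 9 of the 10 were called in at least 2 of the remaining lists, as were 37.1% of protein-coding genes, and the exception was HAB2. PP2CA and HAI1 were called in 9 lists each, and 1.43% of protein-coding genes were called in at least 9. None of the 10 genes was called in all 10 lists, beside 0.0911% of protein-coding genes.

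Counted by list, 9 of the 10 genes were called in ARR14_BA3d, where 43.8% of all protein-coding genes were called. In ARR1∆DDK 5 genes were called against 14.3% of all genes, and in etiolated ARR1_m 4 genes against 6.68%. For ARR1 in long-day seedlings, no gene was called in the doubted ARR1_m list (0.415% of all genes), 6 in ARR1_BA (20.4%) and 9 in ARR1_BA3d (39.5%). In the lists labelled ARR10, 6 genes were called in ARR10_BA (24.8%) and 7 in ARR10_m (19%). The lists labelled ARR12 gave 2 called genes in ARR12_BA (3.26%) and 7 in ARR12_m (24.2%), and with the labels exchanged these counts change places. The share of the 10 genes was above that of all genes in every list except ARR1_m, where peaks below the cutoff were present at ABI1, PP2CA and ABI5. The 10 genes had a median length of 2486 bases and all protein-coding genes 2078 bases, and a longer gene has a longer stretch in which a summit can fall.

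The share also depended on the minimum score. With every deposited peak, 9 genes were called in ARR14_BA3d (43.8% of all genes), 5 in ARR1∆DDK (14.3%) and 4 in etiolated ARR1_m (6.68%). Long-day ARR1 then gave 3 with mock (15.2%), 9 after 4 h (32.7%) and 10 after 3 days of 6-BA (46.2%). The lists labelled ARR10 gave 9 in ARR10_BA (34.8%) and 9 in ARR10_m (45.8%), and those labelled ARR12 gave 5 in ARR12_BA (15.2%) and 8 in ARR12_m (26.6%). With a minimum of 30, the counts were 9 in ARR14_BA3d (42.4%), 5 in ARR1∆DDK (14.3%) and 4 in etiolated ARR1_m (2.15%). For long-day ARR1 they were 0 with mock (0.0692%), 4 after 4 h (8.05%) and 6 after 3 days of 6-BA (21%). For the lists labelled ARR10 they were 4 in ARR10_BA (11.2%) and 2 in ARR10_m (5.49%), and for those labelled ARR12 they were 0 in ARR12_BA (0.215%) and 5 in ARR12_m (8.74%). The calls nearest the cutoff were ABI5 in ARR1_BA at 16.7 and PP2CA in ARR12_BA and HAB1 in ARR1_BA3d at 17.1 each. Just below it were AHG1 in ARR10_m and HAB1 in ARR12_m at 15.5 each.

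**Figure D1:**
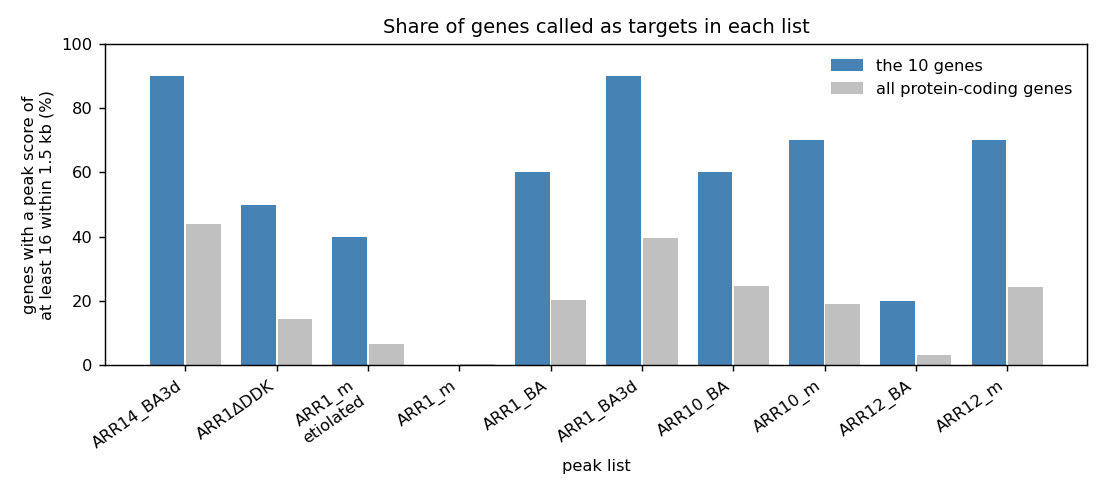
Percentage of genes with a peak of score at least 16 within 1.5 kb (y axis) in each list (x axis), for the 10 genes (blue, left bar) and all 27444 protein-coding genes (grey, right bar). The blue bar is the taller one in every list except ARR1_m, and reaches 90% in ARR14_BA3d and ARR1_BA3d.

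Peaks of different lists often fell in the same places. The 102 peaks formed 26 sites, of which 9 held summits from at least 5 lists, and within those 9 the summits spanned 45 to 185 bases (median 144). By position, 47 of the peaks had their summit upstream of the gene, 23 in its 5′ UTR, 27 downstream, 2 in the 3′ UTR, 2 in an intron and 1 in coding sequence. ABI1, ABI2, PP2CA and HAI1 each had a site that was present in at least 9 lists.

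**Figure D2:**
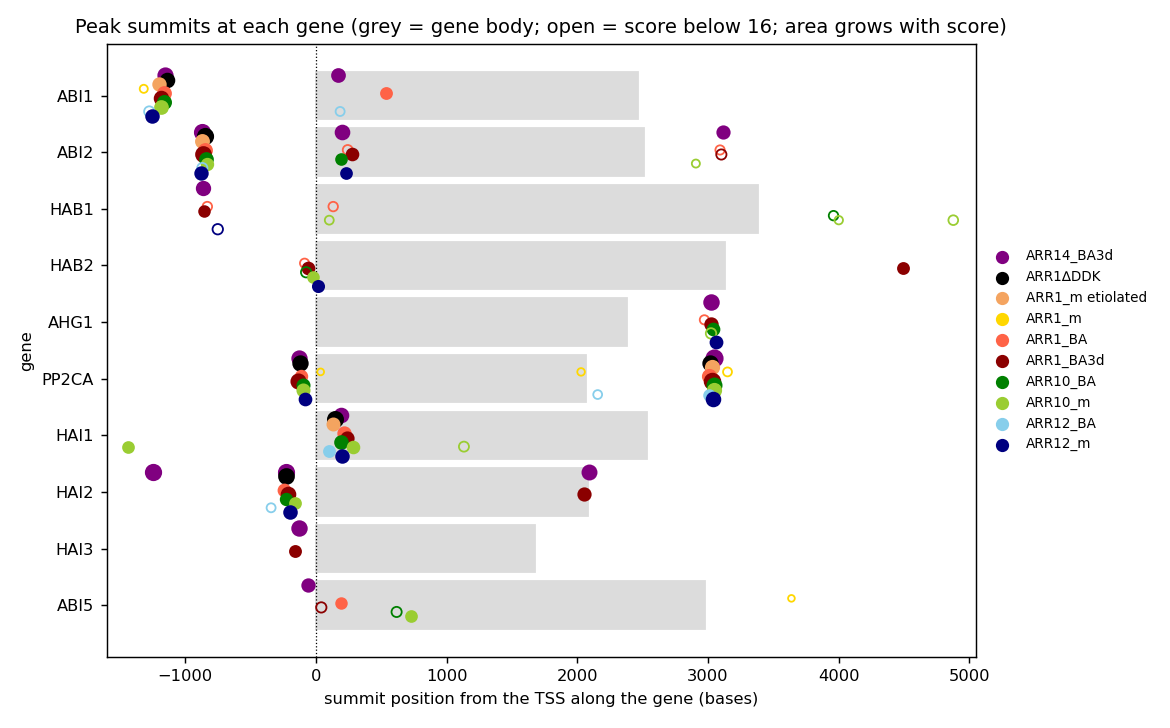
Position of each peak summit relative to the transcription start site (TSS) of its gene, in bases along the gene (x axis), with 1 row per gene and 1 colour per list. Filled points score at least 16, open points less, point area grows with score, and grey boxes are gene bodies. Summits of many lists stack upstream of ABI1, ABI2 and HAI2, in the 5′ UTR of HAI1 and on both sides of PP2CA, and are more spread at ABI5.

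PP2CA (also AHG3), a phosphatase that acts in seed and seedling ABA responses, had the highest score of the 10 genes in 8 lists, the exceptions being ARR1∆DDK (ABI2) and ARR12_BA (HAI1). Its highest score was 255 in ARR14_BA3d, 95.2 in ARR1∆DDK and 54.6 in etiolated ARR1_m. For long-day ARR1 the mock list ARR1_m gave 9.21, 4 h of 6-BA 52.8 and 3 days of 6-BA 172. It was 79.5 in ARR10_BA and 54.0 in ARR10_m, and 17.1 in ARR12_BA and 63.1 in ARR12_m. The percentile ran from 0.339 in ARR1_BA3d to 17.1 in ARR12_BA, with a median of 3.17, the lowest median of the 10 genes. By percentile, PP2CA was thus close to the top of most lists, and stood lower, at 11.6 in ARR1_m, 13.3 in ARR1∆DDK and 17.1 in ARR12_BA, in the others. Percentiles depend on the length of a list, however. Counted from the top, its best peak was at rank 387 in ARR1∆DDK and 341 in ARR1_m, but at 407 in ARR1_BA (percentile 5.19).

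In most lists the strongest PP2CA site lay not in the promoter but downstream. The downstream site was centred 967 bases past the end of the gene, held a summit from all 10 lists and had PP2CA as its nearest annotated gene in each. An upstream site, centred 105 bases before the TSS, held summits from 8 lists. In 7 of these 8 lists the downstream peak scored 1.68 to 2.77 times the upstream one, as with 255 against 92.4 in ARR14_BA3d and 172 against 84.1 in ARR1_BA3d. In ARR1∆DDK the scores were 94.1 downstream and 95.2 upstream, a ratio of 0.988. By fold enrichment over input the downstream site was the higher one in all 8, with ratios of 1.3 in ARR1∆DDK and 1.41 to 2.28 in the others. In the printed windows, the downstream one holds 2 copies of AGATTT, both in the direction of the gene, and a G-box (CACGTG), while the upstream one holds GTATCT and 1 ABRE core (ACGTG).

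**Figure D3:**
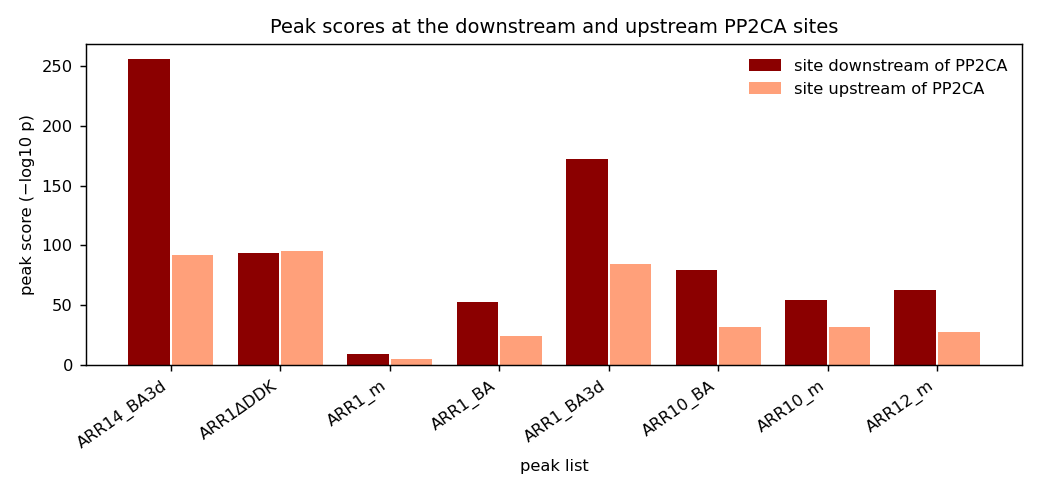
Peak score (−log10 p, y axis) at the downstream (dark red, left) and upstream (light, right) PP2CA sites in the 8 lists with a peak at both (x axis). The downstream bar is higher in all lists except ARR1∆DDK, where the bars stand at 94.1 and 95.2.

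ABI1 and ABI2 are phosphatases named for the ABA-insensitive mutants in their genes. ABI1 had a peak in all 10 lists, with scores of 89.7 in ARR14_BA3d, 63.5 in ARR1∆DDK and 37.6 in etiolated ARR1_m. Long-day ARR1 gave 7.16 with mock, 45.0 after 4 h and 62.1 after 3 days of 6-BA. The values were 48.4 in ARR10_BA and 42.7 in ARR10_m, and 14.6 in ARR12_BA and 39.0 in ARR12_m. By percentile the ABI1 peak stood highest in ARR10_m (3.39) and lowest in ARR1∆DDK (32.2), lists of 11499 and 2916 peaks. Counted from the top, it was at rank 374 in ARR10_m and 929 in ARR1∆DDK, beside 210 in etiolated ARR1_m and 3062 in ARR14_BA3d. The ABI1 peak was below the cutoff in ARR1_m and ARR12_BA. The 10 summits lay 1142 to 1316 bases before the TSS. This place is nearer to RPS2, a disease resistance gene on the opposite strand, whose start was 646 to 820 bases away, and a long non-coding RNA gene (AT4G26095) lay 512 to 686 bases away. With a reach of 1 kb, or with each summit given to its nearest protein-coding gene alone, the ABI1 call was lost in 6 lists and 2 remained, through weaker 5′ UTR peaks of 19.3 in ARR1_BA and 43.1 in ARR14_BA3d.

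ABI2 had its main site 866 bases before the TSS, with summits of 9 lists within 45 bases of each other, the tightest of the 9 shared sites. Here ABI2 itself was the nearest gene. The scores were 144 in ARR14_BA3d, 148 in ARR1∆DDK (percentile 3.81) and 46.7 in etiolated ARR1_m. No ABI2 peak was reported in ARR1_m, and the score was 46.0 in ARR1_BA and 113 in ARR1_BA3d (percentile 2.27). The lists labelled ARR10 gave 42.8 in ARR10_BA and 23.6 in ARR10_m, and those labelled ARR12 gave 14.6 in ARR12_BA and 37.2 in ARR12_m. ABI2 thus ranked high in most lists and close to the top in ARR1_BA3d and ARR1∆DDK. A weaker site in the ABI2 5′ UTR, 233 bases after the TSS, was present in 5 lists with scores of 12.8 to 66.3. Another site, past the end of ABI2, lay inside the neighbouring gene AT5G57060.

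The upstream windows of ABI1 and ABI2 resembled each other. When the central windows of the 19 sites found in at least 2 lists were aligned in all 171 pairs on both strands, the highest local alignment score was 33 for ABI1 and ABI2, with a median of 9 over the pairs. In that alignment bases 2 to 79 of the ABI1 window paired with bases 1 to 72 of the ABI2 window, with 59 identical columns of 79 (74.7%) and 8 gap columns. The next pair, with a score of 18, was HAI2 and HAI3, in which 33 of 44 columns were identical (75%). AHG1 and HAB1, on opposite strands, came next with 17. This ranking is a description of 19 windows chosen by their peaks. ABI1 and ABI2, and HAI2 and HAI3, are closely related genes, and how much of the rest of their upstream regions is alike was not tested.

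HAB1 and HAB2, close relatives of ABI1 and ABI2, had weaker peaks than these. HAB1 was called in ARR14_BA3d at 56.7 and in ARR1_BA3d at 17.1. Scores below the cutoff were 11.4 in ARR1_BA, 11.1 in ARR10_BA, 12.0 in ARR10_m and 15.5 in ARR12_m, and the other 4 lists held no HAB1 peak. Its percentiles ran from 54.2 to 99.2, so every HAB1 peak was in the weaker part of its list. The called peaks lay 866 (ARR14_BA3d) and 859 (ARR1_BA3d) bases before the TSS and nearer to AT1G72760, so that both calls were lost when a summit was given to its nearest protein-coding gene.

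HAB2 was called at 27.4 in ARR1_BA3d, 17.7 in ARR10_m and 21.1 in ARR12_m, and had peaks of 10.2 in ARR1_BA and 15.0 in ARR10_BA. These 5 summits lay within 105 bases of each other, centred 57 bases before the TSS. The HAB2 percentiles ran from 31.5 in ARR10_m to 98.4 in ARR1_BA, with a median of 59.4. HAB2 was the only one of the 10 genes with no peak in ARR14_BA3d, where the lowest score listed was 28.3. Its score in ARR1_BA3d was below that level, but scores of different lists are not on the same scale. Why HAB2 had no peak in ARR14_BA3d was not tested.

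In the other branch of the clade, AHG1, a phosphatase known for its part in seed dormancy, was called at 102 in ARR14_BA3d and 36.7 in ARR1_BA3d. The lists labelled ARR10 gave 28.1 in ARR10_BA and 15.5 in ARR10_m, and ARR12_m gave 28.7. ARR1_BA gave 10.1, and the other 4 lists had no AHG1 peak. AHG1 was therefore among the lowest peaks of ARR1_BA (percentile 98.6) and nearer the top of ARR1_BA3d (30.7). All 6 summits lay 589 to 678 bases past the end of AHG1 and only 8 to 97 bases from a long non-coding RNA gene (AT5G07815), and no AHG1 promoter peak was present in any list.

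HAI1, HAI2 and HAI3 are named for their high induction by ABA and act in drought responses. HAI1 scored 64.3 in ARR14_BA3d, 133 in ARR1∆DDK and 31.2 in etiolated ARR1_m. In long-day ARR1 it had no peak in ARR1_m, 36.4 in ARR1_BA and 34.3 in ARR1_BA3d. The other values were 41.1 in ARR10_BA and 26.0 in ARR10_m, and 19.5 in ARR12_BA and 39.0 in ARR12_m. HAI1 was the only gene called in the list labelled ARR12_BA apart from PP2CA, and the only one whose score in ARR1∆DDK was more than 2 times that in ARR14_BA3d. Its 9 main summits lay 104 to 285 bases after the TSS, in the 5′ UTR. A second HAI1 site lay just outside the limit of 1.5 kb: 7 lists had a summit 1697 to 1795 bases upstream, with scores of 20.4 to 52.9, and these were not counted, while the ARR10_m summit at 1437 bases (18.3) was.

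HAI2 scored 153 in ARR14_BA3d and 115 in ARR1∆DDK, with no peak in the etiolated list. Long-day ARR1 gave no peak in ARR1_m, 28.9 in ARR1_BA and 65.9 in ARR1_BA3d. The score was 23.9 in ARR10_BA and 18.8 in ARR10_m, and 9.45 in ARR12_BA and 39.9 in ARR12_m. Its shared site was centred 228 bases before the TSS and held 8 lists. In ARR14_BA3d a second upstream summit 1246 bases before the TSS scored slightly higher than the shared one (153 and 146). HAI3 had peaks in the lists of 3 days of 6-BA and in no other: 99.3 in ARR14_BA3d and 19.7 in ARR1_BA3d, 28 bases apart and about 146 bases before the TSS.

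ABI5, the transcription factor at the far end of the pathway, had mostly weak peaks, and not all at the same place. Its score was 36.3 in ARR14_BA3d. Long-day ARR1 gave 4.97 with mock, 16.7 after 4 h and 14.9 after 3 days of 6-BA, and the lists labelled ARR10 gave 14.1 in ARR10_BA and 18.3 in ARR10_m. ABI5 was called in ARR14_BA3d, ARR1_BA and ARR10_m, and its percentiles ran from 29.7 to 97.5 with a median of 81.1. Neither ARR1∆DDK, etiolated ARR1_m nor the lists labelled ARR12 held an ABI5 peak. The summits of ARR14_BA3d, 61 bases before the TSS, and of ARR1_BA and ARR1_BA3d, in the 5′ UTR, were joined into a site spanning 252 bases. Those of the lists labelled ARR10 formed another site in an intron, 108 bases apart. The ARR1_m summit stood alone, 661 bases past the gene and nearer to AT2G36260.

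**Figure D4:**
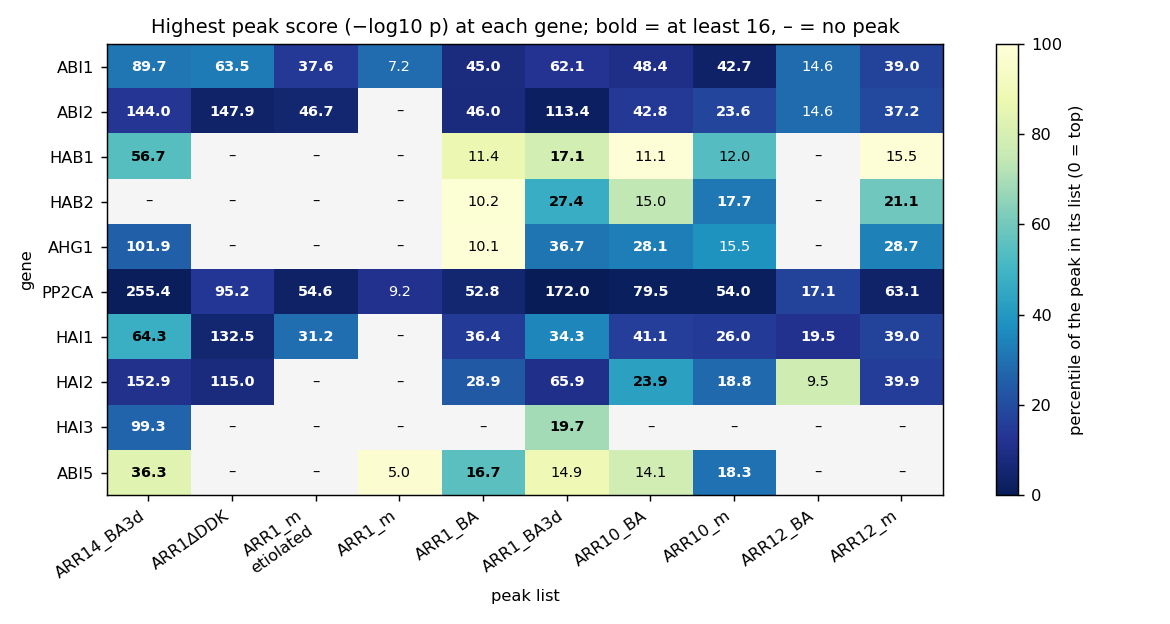
Highest peak score (−log10 p) of each gene (rows) in each list (columns). Colour gives the percentile of that peak within its list, dark for the strongest, bold numbers are scores of at least 16 and a dash means no peak. PP2CA is dark throughout, with 255.4 in ARR14_BA3d, while HAB1 and ABI5 are pale in most lists and HAI3 is filled only in ARR14_BA3d and ARR1_BA3d.

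The design sets 6-BA against mock treatment for each of ARR1, ARR10 and ARR12. The comparisons share lists, since ARR1_BA also stands against ARR1_BA3d, ARR1∆DDK and ARR10_BA, so they are not independent of each other. For ARR1, the 3 genes with a peak in both lists scored higher in ARR1_BA than in ARR1_m: ABI1 6.28 times, PP2CA 5.73 times and ABI5 3.36 times, the last at different places. These ratios rest on the ARR1_m list that fits its target column poorly, in which 2.2% of peaks reached the cutoff, so they cannot be told apart from a weak list. Their median difference was 2.52 on the log2 scale, beside 2.04 over the 2624 genes with a peak in both, 99.6% of which were higher. ABI1 (7.16), PP2CA (9.21) and ABI5 (4.97) all scored below 9.85 in ARR1_m, the lowest score that ARR1_BA holds. Their direction was thus fixed in advance. Between 3 days and 4 h of 6-BA, 7 of 9 genes scored higher in ARR1_BA3d, as did 88.6% of the 7913 genes with a peak in both, and the median log2 difference was 1.19 beside 0.85. AHG1 (3.64 times) and PP2CA (3.26 times) differed most, while HAI1 (0.944 times) and ABI5 (0.891 times) were slightly lower in ARR1_BA3d. For AHG1 (10.1 in ARR1_BA), HAB2 (10.2) and HAB1 (11.4) the direction was fixed, since ARR1_BA3d held no score below 12.9. At the second HAI1 site, beyond 1.5 kb, ARR1_BA3d was the higher one, with 52.9 against 27.1 in ARR1_BA. The summits of 8 of these 9 genes lay within 100 bases of each other, as did those of 70.1% of all genes.

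For the lists labelled ARR10, the difference between 6-BA and mock was small. In ARR10_BA 6 of 9 genes scored higher than in ARR10_m, as did 79.6% of all genes, with a median log2 difference of 0.34 beside 0.44 over all genes. ABI2 was 1.81 times and AHG1 1.82 times as high, PP2CA 1.47 times, and HAB2 and ABI5 were lower at 0.845 and 0.77 times. HAB1 was lower at 0.926 times by its highest peaks, which lay 916 bases apart. At the downstream site that both lists hold it was higher at 1.4 times (11.1 in ARR10_BA and 7.92 in ARR10_m). ARR10_BA held no score below 10.7, so this site could only come out higher in ARR10_BA. At the upstream PP2CA site the ratio was 0.988. ARR10_BA was also close to ARR1_BA, with a median log2 difference of 0.11 over 9 genes, beside 0.22 over all genes, and AHG1 differed most (2.78 times). AHG1 (10.1) and HAB2 (10.2) scored below 10.7 in ARR1_BA, the lowest score of ARR10_BA, so their direction was fixed.

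For the lists labelled ARR12, all 5 genes with a peak in both scored lower in ARR12_BA than in ARR12_m, from 0.237 times (HAI2) to 0.499 times (HAI1). ABI1 and ABI2 (14.6 each) and HAI2 (9.45) scored below 15.3 in ARR12_BA, the lowest score that ARR12_m holds. For these genes no other order of the lists could be seen. The median log2 difference was -1.42, beside -1.23 over all genes, of which 2.94% were higher. If the labels are exchanged, the same values run in the other direction. The direction of the ARR12 response at these genes therefore rests on which label is right.

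ARR1∆DDK was set against full-length ARR1. At 5 genes with peaks in both, ARR1∆DDK scored higher than ARR1_BA in each: HAI2 3.98 times, HAI1 3.64 times, ABI2 3.21 times, PP2CA 1.8 times and ABI1 1.41 times. The highest PP2CA peaks lay at different places, upstream in ARR1∆DDK and downstream in ARR1_BA, and site by site the ratio was 3.93 upstream and 1.78 downstream. The median log2 difference was 1.68, beside 1.09 over all genes, 90.9% of which were higher. ARR1∆DDK held no score below 31.2, so a gene below that in ARR1_BA could be compared only if it was higher in ARR1∆DDK. This fixed the direction for HAI2 (28.9 in ARR1_BA) and for the upstream PP2CA site (24.2). HAB1, HAB2, AHG1 and ABI5, at 10.1 to 16.7 in ARR1_BA, had no peak in ARR1∆DDK and were not compared. The HAI1 ratio to ARR1_BA3d, 3.86, was larger than or equal to that of 98.5% of genes with a peak in both lists, whereas the PP2CA ratio, 0.553, was at or above only 8.2% of them. That PP2CA ratio again sets the upstream peak against the downstream one: at the downstream site it was 0.547, and at the upstream site it turned, to 1.13. The HAI1 ratio is that of the 5′ UTR site. At the second HAI1 site, beyond 1.5 kb, the order turned, with 34.5 in ARR1∆DDK and 52.9 in ARR1_BA3d. The genes thus took different orders in these lists: by score ABI2, HAI1, HAI2, PP2CA and ABI1 in ARR1∆DDK, and PP2CA, ABI2, HAI2, ABI1 and HAI1 for the same genes in ARR1_BA3d. The 2 lists differ in promoter, tag, receiver domain, inducer and duration (4 h against 3 days), which cannot be told apart.

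ARR14 was set against ARR1 after 3 days of 6-BA. All 9 genes with a peak in both scored higher in ARR14_BA3d, as did 95.9% of all genes, with a median log2 difference of 1.21 beside 1.14. ARR14_BA3d held no score below 28.3, so a gene below that in ARR1_BA3d could be compared only if it was higher in ARR14_BA3d. This fixed the direction for HAB1 (17.1 in ARR1_BA3d), HAI3 (19.7) and ABI5 (14.9). HAB2, at 27.4 in ARR1_BA3d, had no peak in ARR14_BA3d and was not compared. HAI3 was 5.04 times, HAB1 3.31 times and AHG1 2.77 times as high, and ABI2 1.27 times. By percentile the order turned for 5 of the 9 genes: ABI2 stood at 13 in ARR14_BA3d against 2.27 in ARR1_BA3d, ABI1 at 31.2 against 12.2, HAI1 at 47.7 against 34.9, PP2CA at 0.938 against 0.339 and HAI2 at 11.3 against 10.7. Against ARR1∆DDK, HAI1 in ARR14_BA3d stood out with a ratio of 0.485, at or above only 0.65% of genes with a peak in both. That ratio is of the 5′ UTR site. At the second HAI1 site, beyond 1.5 kb, the order turned, with 49.5 in ARR14_BA3d and 34.5 in ARR1∆DDK.

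Etiolated and long-day seedlings could be set against each other only for ARR1 with mock treatment. ABI1 scored 5.25 times and PP2CA 5.92 times as high in etiolated ARR1_m as in ARR1_m, a median log2 difference of 2.48 beside 1.99 over all genes with a peak in both. Their scores in ARR1_m, 7.16 and 9.21, were below 20.6, the lowest score of the etiolated list, so this direction was fixed in advance. ABI2 and HAI1 had peaks of 46.7 and 31.2 in the etiolated list and none in ARR1_m. All of the etiolated peaks reached the cutoff, against 2.2% of those of the doubted ARR1_m list, so light condition and the state of that list cannot be told apart.

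Motif copies at the sites were counted as a description. Of the 9 shared sites, 5 held AGATHY in the window of 101 bases and 7 in a window of 201 bases. AGATHY was in 66.8% of all summit windows of 101 bases in ARR14_BA3d, 63% in ARR1∆DDK and 45% in ARR1_BA3d. For windows of 201 bases these shares were 82.4%, 83.6% and 66.5%. The share at these sites was thus near the background at both lengths. The ABRE core ACGTG was searched on both strands and is contained in the G-box CACGTG. It was in 5 of the 9 windows of 101 bases, against 20%, 29.1% and 23.7% of all windows of that length in the same lists. The G-box was in 1 of the 9, against 8.84%, 14.4% and 10.8%.

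The promoters, from 1.5 kb before to 100 bases after the TSS, showed a related picture. AGATHY was in those of all 10 genes and of 99.9% of protein-coding genes. The ABRE core was in those of all 10 genes and of 70.2% of protein-coding genes, with 9 copies at ABI5, 7 at HAI2, 6 each at HAB1 and PP2CA and a median of 1 over all genes. A G-box was present at 5 of the 10 genes and 21.2% of all, with 4 at ABI5. A G-box counts as an ABRE core on each strand.

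Other genes of the ABA pathway were also near peaks. Their counts stand beside 43.8% of all genes called in ARR14_BA3d, 14.3% in ARR1∆DDK, 20.4% in ARR1_BA and 39.5% in ARR1_BA3d. In the other lists the share was 6.68% in etiolated ARR1_m, 0.415% in ARR1_m, 24.8% in ARR10_BA, 19% in ARR10_m, 3.26% in ARR12_BA and 24.2% in ARR12_m. Of the 14 ABA receptor genes, 12 were called in ARR14_BA3d, 7 in ARR1∆DDK and 3 in etiolated ARR1_m. Long-day ARR1 gave 0 with mock, 8 after 4 h and 11 after 3 days of 6-BA, the lists labelled ARR10 gave 8 each, and those labelled ARR12 gave 0 in ARR12_BA and 9 in ARR12_m. PYL5 and PYL4 ranked highest, with scores of 81.6 and 47.6 in ARR1_BA3d. Of the 3 SnRK2 kinases, all 3 were called in ARR14_BA3d and ARR1_BA3d, SNRK2.3 at 75.5 and 56.6, and 0 to 2 in each other list, with 0 in ARR1∆DDK.

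Among regulators of ABI5, 3 of 5 were called in ARR14_BA3d, 4 of 5 in ARR1_BA3d and ARR1_BA, and 0 to 4 in each other list. The ABI5-binding proteins AFP3 and AFP2, which restrain ABI5, had far stronger peaks than ABI5 itself: 141 and 269 in ARR14_BA3d, 123 and 120 in ARR1∆DDK, and 149 and 161 in ARR1_BA3d. The median percentile over the lists, with no peak counted as 100, was 3.39 for AFP3 and 5.47 for AFP2. Of 8 related transcription factor genes 5 were called in ARR14_BA3d, 5 in ARR1_BA3d and 0 to 3 in each other list, led by ABF3 (127 and 52.9) and ABF4 (62.0 and 24.5).

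ABA synthesis and breakdown gave 6 of 8 and 3 of 4 genes called in ARR14_BA3d, and 5 of 8 and 4 of 4 in ARR1_BA3d. Each other list gave 0 to 4 of the 8 and 0 to 4 of the 4, with 1 and 1 in etiolated ARR1_m and none in ARR1_m and ARR12_BA. CYP707A2, an ABA 8′-hydroxylase that degrades the hormone, scored 252 in ARR14_BA3d and 178 in ARR1_BA3d. NCED3, which makes the committed step of ABA synthesis, scored 120 and 61.2, ABA2 65.6 and 41.1, and CYP707A1 30.8 and 25.8. Of 5 genes known as ABA-induced outputs, 1 was called in ARR14_BA3d, 2 in ARR1_BA3d and 0 or 1 in each other list. Among these RD29B scored 69.4 and 26.0, and EM1 had no peak in any list.

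The other 62 PP2C genes gave 35 calls in ARR14_BA3d (56.5%), 10 in ARR1∆DDK (16.1%), 20 in ARR1_BA (32.3%) and 36 in ARR1_BA3d (58.1%). Over the same lists the 9 clade A genes gave 8, 5, 5 and 9 calls. The strongest of the others were AT1G07160 (236 in ARR14_BA3d and 110 in ARR1_BA3d) and AT1G03590 (156 and 79.9).

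Within the set, ABI2 and HAI1 had the most alike profiles among the genes called in at least 7 lists, with a mean difference of 12.3 percentile points over the 10 lists, and ABI1 and PP2CA differed by 12.9. Across all protein-coding genes that share no peak with the gene, the profile most like that of PP2CA was that of AT1G68670 (2.82 points) and the most like ABI1 was SHV3 (4.87). For ABI2 it was AT3G07640 (4.33), for HAI1 TTA1 (6.69), for HAI2 AT3G47480 (6.56), for AHG1 AT2G18490 (2.95), for HAB1 AT1G31300 (1.96), for HAB2 ATG8G (1.8) and for ABI5 AT3G07860 (3.94). Small values for HAB1, HAB2 and AHG1 come easily, since lists without a peak count as equal at 100.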

How the data were processed

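Peak lists of 10 immunoprecipitations were used. Of 14 samples, 2 controls (input and IgG) and 2 RNA-seq records that each span several conditions were not used here as samples. The authors mapped reads with Bowtie 0.12.7, called peaks over input with MACS2 2.0.10 and merged 2 or more biological replicates of a condition by the irreproducible discovery rate. Each list holds, as deposited, a fold enrichment (ratio to input), a −log10 p-value, an integer score and a summit per peak, all the authors' values. The text's score is the −log10 p-value, and the integer score was not used. Depth is unknown, since the lists hold no read counts. Libraries of unequal depth give unequal scores, so peaks were also ranked within each list.

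Summits were assigned to RefSeq TAIR10.1 genes, whose nuclear sequence was taken to match the TAIR10 build of the submitters' processing notes. 1 peak of the list labelled ARR12_m ran past a chromosome end. Background shares are over 27444 protein-coding genes. The pathway groups held 47 listed loci, and the other PP2C genes came from the annotation's product names. Windows were aligned with a match of 1, a mismatch of -1, -3 for the first gap base and -1 for each further one. On simulated data, all 352 planted assignments of 200 summits were recovered and 0 were wrong. Python 3.11.15, NumPy 2.4.6, pandas 2.3.3, Biopython and Matplotlib 3.10.9 were used. No test between lists was made.

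Named genes were the 10 genes, the nearest genes of their summits, the 2 best-ranked genes of each pathway group and the gene with the most similar ranks. The genes and lists were chosen with earlier results of these data known. The printed windows, the alignment of windows, the ratios at single sites and the peaks outside 1.5 kb were chosen after seeing the data. Alternatives tried were a minimum score of 30 and none, a reach of 1 kb, whole peaks, the nearest gene, equal numbers of top peaks, exchanged ARR12 lists, all nuclear genes, and ranks and summits by fold enrichment. One common minimum score and leaving out the ARR10 and ARR12 lists were added after seeing the data.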

Additional observations from a re-analysis of the deposited data

How the results depend on the processing

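No paired analysis was possible because only 1 merged list stood for a condition, and for the same reason no replicate could be left out. Counts of the 10 genes called moved by more than 1.5 times as follows. With every deposited peak, 3 genes were called in ARR1_m and 5 in ARR12_BA. With a minimum of 30, or with 31.2, the highest of the lists' lowest scores, 2 were called in ARR10_m and 0 in ARR12_BA. With the 1513 top peaks of every list, 3 were called in ARR14_BA3d (7.47% of all protein-coding genes), 2 in ARR1_m (7.12%), 4 in ARR1_BA3d (7.19%), 4 in ARR12_BA (6.18%) and 2 in ARR10_m (7.15%). With the ARR12 lists exchanged, the counts were 7 for ARR12_BA and 2 for ARR12_m. A reach of 1 kb and the nearest gene moved 6 of 64 and 5 of 60 highest scores, mostly at ABI1 and HAB1. Ranking by fold enrichment moved 2 of 71 percentiles by over 10 points (ABI5 in ARR1_BA3d to 99.9 and HAI2 in ARR12_BA to 88.9). The summit of highest fold moved 1 of 71 positions, that of PP2CA in ARR1∆DDK, to the downstream site. Leaving out the lists labelled ARR10 or ARR12 kept the number of genes called in at least 2 lists at 10. Depth limits every absence, since the lowest score held ranged from 4.88 to 31.2.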
